A study of Homo sapiens with 28 samples.

Results

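The G2/M and mitosis genes are 48 genes that carry cells from the end of DNA replication through chromosome segregation to cell separation. They were taken by gene symbol from a list of the mitotic programme. Each was read from probe sets annotated with that single gene symbol, 94 probe sets in all, of which the brightest stood for the gene. The 48 are part of 19775 genes with a probe set, and all 48 were among the 15437 genes bright enough to test. They are described by role, in the order of mitotic entry, mitotic kinases, the spindle checkpoint with the chromosomal passenger proteins, anaphase promotion, kinetochores, kinesin motors, and the other spindle and cytokinesis factors.

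The study exposed 4 established human lines of multiple myeloma (KMS11, U266, 8226/S and MM.1s) to arsenicals and profiled total RNA on Affymetrix HG-U133 Plus 2.0 arrays, 28 in all. Myeloma is a cancer of plasma cells. ATO is arsenic trioxide, an inorganic arsenical, and was given at 2 µM to every line for 6, 24 or 48 h. DAR is darinaparsin, an organic arsenical in which a dimethylated arsenic is joined to glutathione; it was given for 6 or 24 h at a dose that differed between lines, with U266 at 4 µM, KMS11 and MM.1s both at 3 µM, and 8226/S at 2 µM. Each line had 1 array per treatment and time and 2 untreated arrays, control 1 and control 2, both taken at 0 h. DAR arrays were set against control 1 and ATO arrays against control 2 of the same line, by the rule that defines these comparisons; the labels do not tie a control number to a compound. Because all controls were taken at 0 h, time in culture and treatment cannot be told apart. Nothing in the labels says that arrays came from separate cultures, so the 4 lines stand in for replicates and p-values measure only the spread between these arrays. The fit takes 1 residual spread per gene over all treatments and times. An SE or p-value given for a treatment therefore does not measure how far the 4 lines lay apart under that treatment. In tests of differences between lines, the arrays of a line stand in for replicates instead. Values for the lines are always given in the order U266, MM.1s, KMS11 and 8226/S.

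Mitotic genes are switched on together late in the cell cycle. In G1 the DREAM complex, built on the MuvB core, holds their promoters silent. From S phase into G2 the same core joins B-MYB and then FOXM1 to activate them, and the transcripts are lost again after division. Their level in a bulk sample therefore follows how many cells are in G2 and mitosis as well as how strongly each cell transcribes them. In bulk RNA, fewer cells in G2 and mitosis and less RNA per cell cannot be told apart.

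The arrays fell into 2 sets in their values. The 12 arrays of DAR and control 1 had median signals of 65.5 to 108.7 and ACTB 3'/5' ratios of 1.28 to 2.19, and the 16 arrays of ATO and control 2 had median signals of 110.9 to 147.3 and ACTB 3'/5' ratios of 1.03 to 1.27. All 20 treated arrays lay nearer to their line's control of the number used here than to the other. The median member was lower in control 2 than in control 1 of the same line, by -0.60 to -0.16 on the log2 scale, whereas the median of all tested genes was higher by 0.16 to 0.22. Of 8 plasma cell markers, SDC1, TNFRSF17, PRDM1, IRF4, XBP1 and POU2AF1 lay above the array median on all 28 arrays, CD38 on 17 and MZB1 on 26. The myeloid marker CD14, the fibroblast marker LUM and the endothelial marker CDH5 lay above it on 0 arrays, and the T cell marker CD3D on 2. These were the lowest of their lists. The endothelial PECAM1 lay above it on 28 arrays, the T cell CD2 and the fibroblast COL1A2 on 20 each. The T cell CD3E did so on 15 and the myeloid CSF1R on 11, so these lists were not silent.

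Mitotic promoters are known for a short element, the cell cycle genes homology region, through which the DREAM complex acts, and for CCAAT boxes bound by NF-Y. The promoters of 4 members with values in every line below are shown. Each holds the letters of both elements, and they were picked for having the most CCAAT boxes. CDC20, with 2 boxes as well, came later in the order used for ties. Picked in this way, these promoters do not stand for all members. They come from RefSeq on GRCh38.p14 and run 5′ to 3′ from 250 bases before to 50 bases after the gene start, with TTTGAA or TTCGAA (the core of that element) and CCAAT in capitals, on either strand. The regions are chr17:40417847-40418146 on the minus strand for TOP2A, chr3:172750476-172750775 on the plus strand for ECT2, chr2:110678014-110678313 on the minus strand for BUB1 and chr10:128126374-128126673 on the minus strand for MKI67.
TOP2A: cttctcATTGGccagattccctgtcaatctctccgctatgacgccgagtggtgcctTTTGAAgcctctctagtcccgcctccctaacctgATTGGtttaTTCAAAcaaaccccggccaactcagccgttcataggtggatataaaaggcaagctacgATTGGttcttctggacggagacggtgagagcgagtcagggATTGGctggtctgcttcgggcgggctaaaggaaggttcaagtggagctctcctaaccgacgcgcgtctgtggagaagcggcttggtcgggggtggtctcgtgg
ECT2: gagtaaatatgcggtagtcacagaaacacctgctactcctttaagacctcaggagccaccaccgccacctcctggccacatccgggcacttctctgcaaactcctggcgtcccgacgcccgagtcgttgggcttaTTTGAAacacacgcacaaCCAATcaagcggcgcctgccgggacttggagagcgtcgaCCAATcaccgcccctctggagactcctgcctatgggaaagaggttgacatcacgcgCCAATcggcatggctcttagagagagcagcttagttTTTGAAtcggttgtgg
BUB1: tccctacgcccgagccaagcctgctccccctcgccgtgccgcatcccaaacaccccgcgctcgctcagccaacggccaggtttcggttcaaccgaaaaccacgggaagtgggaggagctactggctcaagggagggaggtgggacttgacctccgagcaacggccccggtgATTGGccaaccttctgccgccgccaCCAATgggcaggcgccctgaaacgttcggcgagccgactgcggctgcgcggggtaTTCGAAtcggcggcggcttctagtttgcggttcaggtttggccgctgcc
MKI67: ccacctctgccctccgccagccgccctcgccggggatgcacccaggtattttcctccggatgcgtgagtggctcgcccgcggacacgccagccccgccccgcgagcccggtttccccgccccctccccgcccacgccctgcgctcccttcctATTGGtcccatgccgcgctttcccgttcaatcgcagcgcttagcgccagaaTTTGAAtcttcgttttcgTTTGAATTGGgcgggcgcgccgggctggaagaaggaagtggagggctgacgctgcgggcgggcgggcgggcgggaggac

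In TOP2A the 2 core elements began at -194 and -151 from the start, and CCAAT boxes at -244, -160, -93 and -53. BUB1 had a single TTCGAA core at 2, just past the start, with CCAAT boxes at -79 and -54. In MKI67 the second core, at -29, shared 1 base with a CCAAT box on the other strand at -24. Promoter windows were found for 40 of the 48 members. TTK, BUB3, TPX2, AURKA, UBE2C, PBK, FOXM1 and BIRC5 had none in the table. A TTTGAA or TTCGAA was present in 29 of the 40 (72.5%), compared with 2 of 28 genes of G1/S and DNA replication (7.14%) and 16.6% of 27305 genes. CCAAT was present in 30 of the 40 (75%), 60.7% of the G1/S windows and 35.7% of all windows, and both kinds of element in 24 of the 40 (60%) against 6.58% of all. These matches describe letters, not bound sites.

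Before treatment most members were well expressed in all 4 lines, but unevenly. INCENP was dim in each, with signals of 121 to 396 over the control arrays. Over the 8 control arrays, 36 of the 48 members differed between lines by limma's F test with Benjamini-Hochberg adjustment, against a background of 51.7% of all tested genes. With the control number left out of that fit 7 were called, among them UBE2C and MKI67 but not CCNB1 (adjusted p = 0.278 there). KMS11 had the highest mean for 19 members and 8226/S for 18, U266 for 6 and MM.1s for 5. UBE2C, which loads ubiquitin for the anaphase-promoting complex, had the smallest p, with signals of 181, 6538, 11574 and 299.7 in control 1 and 288, 4438, 8064 and 687 in control 2. It was thus bright in MM.1s and KMS11 and dim in U266 and 8226/S (adjusted p = 2.84e-06). This 37.6-fold range over lines was the widest of the members, with MKI67 next at 4.53-fold. UBE2C was read from 1 probe set, and whether that probe set reads equally well in all lines was not tested. MKI67, the proliferation antigen Ki-67, had signals of 1659, 4282, 5466 and 1102 in control 1 and 2325, 2816, 5081 and 1181 in control 2, lowest in 8226/S and highest in KMS11. CCNB1, the cyclin B that activates CDK1, had another order, with 6655, 6328, 9144 and 13711 in control 1 and 3704, 3104, 4883 and 8481 in control 2. It was highest in 8226/S and lowest in MM.1s in both controls, and lower in control 2 in each line. MAD2L1, BUB3, CKS2, SPC25 and KIF18A were among the 12 members that did not pass.

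After 48 h of ATO the mitotic genes as a list were lower in MM.1s and U266, while their median lay near 0 in KMS11 and 8226/S. limma called 21 of the 48 members lower and 0 higher at an adjusted p under 0.05, where 11.7% of all tested genes were called and 5.38% were called lower. The median log2 change over the 48 members was -0.61, against 0.06 over all tested genes. The mean over lines lay below 0 for 48 of 48 members, and for 47 with the mean of a gene's probe sets. Of the 48, 14 were lower in each of the 4 lines, where 11% of all genes were. Within lines the median member changed by -0.83 in U266, -1.76 in MM.1s, 0.09 in KMS11 and -0.04 in 8226/S. Members at least 2-fold lower numbered 16 in U266, 46 in MM.1s, 0 in KMS11 and 1 in 8226/S, where 4.94%, 6.44%, 5.63% and 3.74% of all genes were. MM.1s was the lowest of the 4 lines for 48 of 48 members, and U266 the second lowest for 47. The count rests on these lines: it was 7 without U266 and 8 without MM.1s, where the median was -0.25, and 27 without KMS11, while FOXM1, CCNA2, MAD2L1, BUB1, BIRC5, ECT2 and MKI67 were called with any 1 line left out. It was 13 with the mean of a gene's probe sets, which dropped BUB1 and BIRC5, and 0 without the line block. The SD of the change over the 4 lines was 1.41 for PLK1, 1.16 for FOXM1, 0.82 for MAD2L1 and 0.60 for BUB1. The SEs given below come from the spread shared by all treatments, not from these SDs.

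**Figure D1:**
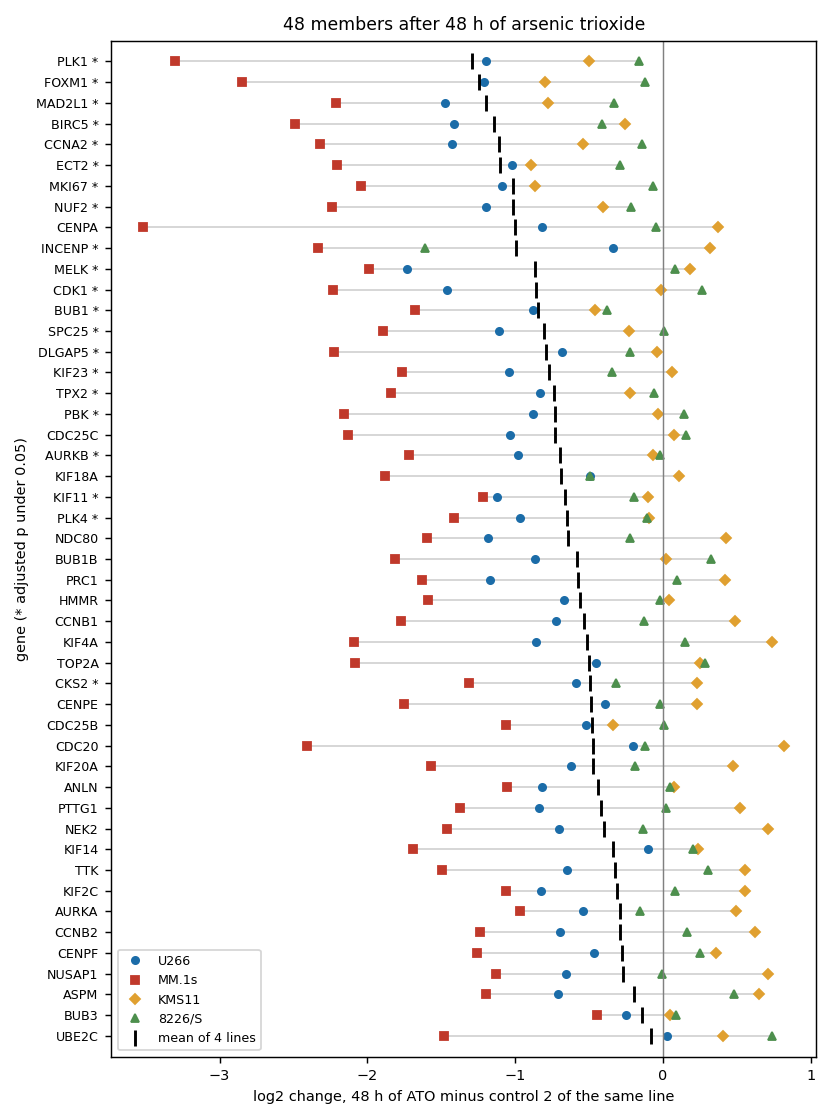
Log2 change of each of the 48 members after 48 h of ATO against control 2 of the same line (x axis), 1 row per gene ordered by the mean over lines; each symbol is 1 array of a line, the black bar is the mean of 4 lines, and an asterisk marks an adjusted p under 0.05. MM.1s squares lie furthest left in 48 of 48 rows, U266 circles are second in 47, and KMS11 and 8226/S lie around 0.

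Among the 8 genes of mitotic entry, 4 fell after 48 h of ATO: FOXM1, CCNA2, CDK1 and CKS2. FOXM1, the transcription factor that activates G2/M genes, had signals of 355, 202, 1619.9 and 2066 after 48 h of ATO, against 858, 1632, 2832 and 2249.8 in control 2. Its 48 h value was below the control in each line, by most in MM.1s and by least in 8226/S. The log2 change was -1.24 ± 0.26 (SE; adjusted p = 0.00237), which is 2.37-fold lower. CCNA2, the cyclin of S phase and early G2, had 1439, 569.5, 3328 and 3918 after 48 h of ATO and 3913, 2964, 4865 and 4323 in control 2, a log2 change of -1.11 ± 0.22 (SE; adjusted p = 0.00215). CDK1, the kinase that starts mitosis, had 2369, 1183, 6535 and 4236 after 48 h of ATO and 6577, 5658, 6608 and 3515 in control 2. CDK1 was lower in U266 and MM.1s, level in KMS11 and higher in 8226/S, and its change of -0.86 ± 0.25 (SE; adjusted p = 0.0259) lost its call without U266 (adjusted p = 0.22) or MM.1s (adjusted p = 0.34). CKS2, a small CDK-binding protein, changed by -0.50 ± 0.16 (SE; adjusted p = 0.0411). CCNB1 had 2235, 889.6, 6866 and 7769.6 after 48 h of ATO and 3704, 3104, 4883 and 8481 in control 2, and its mean change of -0.53 ± 0.23 (SE; adjusted p = 0.156) did not pass. CCNB2 and the CDK1-activating phosphatases CDC25B and CDC25C also did not pass, with changes of -0.29, -0.48 and -0.73. A dimmer CDC25C probe set, above the array median on 19 arrays, changed the other way, by 0.50.

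Of the 8 mitotic kinases, 5 fell: PLK1, PLK4, AURKB, MELK and PBK. PLK1, which acts on centrosomes, spindle and cytokinesis, had signals of 776, 104, 2856 and 3191 after 48 h of ATO, against 1812, 1285, 4058 and 3580.2 in control 2. The MM.1s array was more than 3 log2 units below its control and the 8226/S array close to its own. PLK1 had the lowest mean of all members, -1.29 ± 0.38 (SE; adjusted p = 0.0268), and the call was lost without U266 (adjusted p = 0.101), without MM.1s (0.134) or without KMS11 (0.0592). PLK4, the kinase of centriole duplication, changed by -0.65 ± 0.17 (SE; adjusted p = 0.0144), and AURKB, the catalytic subunit of the chromosomal passenger complex, by -0.69 ± 0.21 (SE; adjusted p = 0.0287). MELK was 1098, 824, 4057 and 2824 after 48 h of ATO and 3715, 3351, 3578 and 2663 in control 2, so that U266 and MM.1s lay far below and KMS11 and 8226/S slightly above their controls. AURKA, the spindle pole kinase, had 1823, 863, 4679 and 2086 after 48 h of ATO and 2659.9, 1719, 3309.5 and 2328 in control 2. It was lower in U266 and MM.1s and higher in KMS11, and its change of -0.29 ± 0.19 (SE; adjusted p = 0.392) did not pass. NEK2, a kinase of centrosome separation, and TTK, which starts checkpoint signalling, did not pass either, at -0.40 and -0.32.

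The spindle checkpoint holds anaphase back until chromosomes are attached, and 4 of the 6 members of that group fell. MAD2L1, which with BUBR1 restrains CDC20, had signals of 2284, 1438, 3989 and 5588 after 48 h of ATO, against 6386, 6777, 6844 and 7049 in control 2. All 4 lines were lower, and its log2 change of -1.20 ± 0.20 (SE; adjusted p = 0.000432) had the smallest adjusted p of the 48 members. BUB1, the kinase that recruits checkpoint proteins to kinetochores, had 1914, 1022, 1534 and 4686 after 48 h of ATO and 3549, 3333, 2116 and 6096 in control 2, lower in 4 of 4 lines at -0.85 ± 0.17 (SE; adjusted p = 0.00191). BIRC5, survivin, had 1433, 473, 4187 and 3111 after 48 h of ATO and 3866, 2793, 5017 and 4159 in control 2. It was lower in all 4 lines and by most in MM.1s, with a mean of -1.14 ± 0.23 (SE; adjusted p = 0.00207). Its partner INCENP was dim, with 191, 30.7, 158 and 71.4 after 48 h of ATO and 249.3, 272, 121 and 277 in control 2. INCENP was the 1 member at least 2-fold lower in 8226/S, and its mean change was -0.99 ± 0.32 (SE; adjusted p = 0.0419). BUB1B, the gene of BUBR1, and BUB3 did not pass, and BUB3 had the smallest change of all members in MM.1s, -0.44.

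None of the 3 genes of anaphase promotion passed after 48 h of ATO by limma, 1 of them was at an unadjusted p under 0.05, and the lines lay apart. CDC20, the activator of the anaphase-promoting complex, had signals of 1076, 261, 3562 and 3545 after 48 h of ATO, against 1241, 1508, 2003 and 3851 in control 2. The MM.1s array was far below its control and the KMS11 array above it, the highest of the 48 members in KMS11 at 0.82. UBE2C changed by 0.02, -1.48, 0.41 and 0.74 on the log2 scale in the 4 lines, which spans 0. PTTG1, securin, changed by -0.84, -1.37, 0.52 and 0.02.

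At the kinetochore 2 of 6 genes fell, NUF2 at -1.01 ± 0.23 (SE; adjusted p = 0.00467) and SPC25 at -0.81 ± 0.19 (SE; adjusted p = 0.00686), both subunits of the complex that grips microtubules. The complex's name-giving subunit NDC80 changed by -0.64 ± 0.22 and did not pass. CENPA, the histone variant that marks centromeres, had the lowest single value of any member, -3.52 in MM.1s. Its signals were 1054, 70.2, 1561 and 1529 after 48 h of ATO and 1878, 1106, 1197 and 1583 in control 2, lower in 3 lines and higher in KMS11. The mean change of -1.002 ± 0.35 (SE; adjusted p = 0.0687) did not pass. The kinetochore motor CENPE and CENPF also did not, at -0.48 and -0.28.

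Among 7 kinesins KIF11 and KIF23 fell. KIF11, the motor that pushes spindle poles apart, had signals of 930.2, 1153, 2719 and 2220.5 after 48 h of ATO, against 2057, 2726, 2922 and 2550.1 in control 2. It was lower in all 4 lines, about as much in U266 as in MM.1s and slightly in KMS11 and 8226/S. Its change was -0.66 ± 0.17 (SE; adjusted p = 0.012), and the call was lost without U266 (adjusted p = 0.147) or MM.1s (0.17). KIF23, a motor of the central spindle, changed by -0.77 ± 0.21 (SE; adjusted p = 0.0162), although a second, dimmer KIF23 probe set changed by 0.13. KIF20A, KIF2C, KIF4A, KIF14 and KIF18A had means between -0.69 for KIF18A and -0.31 for KIF2C and did not pass.

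Of the 10 remaining spindle, chromosome and cytokinesis factors, ECT2, MKI67, DLGAP5 and TPX2 fell. ECT2, the exchange factor that activates RhoA for cytokinesis, had signals of 845, 250.1, 1488 and 2347 after 48 h of ATO, against 1742, 1259.8, 2789 and 2876 in control 2. It was lower in each line, and in KMS11 it was the lowest of the 48 members at -0.89. The mean was -1.10 ± 0.19 (SE; adjusted p = 0.000546). MKI67 had 1079, 662, 2771 and 1124 after 48 h of ATO and 2325, 2816, 5081 and 1181 in control 2, lower in U266, MM.1s and KMS11 and nearly level in 8226/S, at -1.02 ± 0.21 (SE; adjusted p = 0.00235). TOP2A, the topoisomerase that untangles sister chromatids, had 3058, 913, 9219 and 7528 after 48 h of ATO and 4195, 3971, 7741 and 6188 in control 2. It was below its control in U266 and MM.1s and above it in KMS11 and 8226/S, and its change of -0.50 ± 0.27 (SE; adjusted p = 0.264) did not pass. TPX2, which activates AURKA, changed by -0.74 ± 0.22 (SE; adjusted p = 0.0279), and DLGAP5, a spindle microtubule protein, by -0.79 ± 0.24 (SE; adjusted p = 0.0334). PRC1, ANLN, NUSAP1, HMMR and ASPM ranged from -0.57 for PRC1 to -0.19 for ASPM and did not pass.

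**Figure D2:**
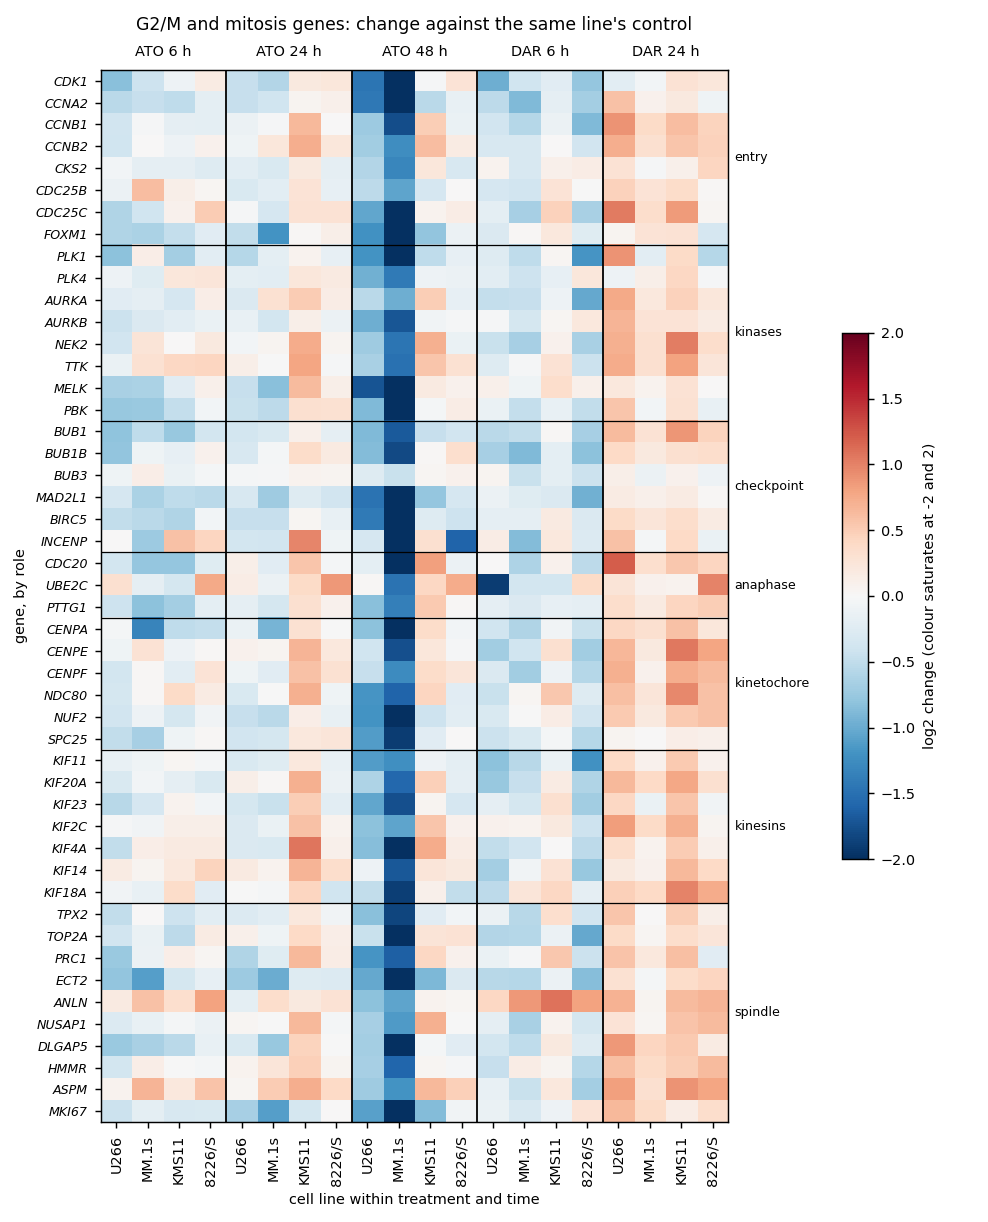
Log2 change of the 48 members (rows, grouped by role) in each line, treatment and time (columns) against the same line's control, on a colour scale that saturates at -2 and 2. The MM.1s column at 48 h of ATO is the darkest blue, with 46 members at least 2-fold lower, and the DAR 24 h columns are mostly red, with medians of 0.19 to 0.56.

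Calls under ATO were nearly all at 48 h, although many members already lay slightly below control at 6 h. After 6 h of ATO limma called 1 member, BUB1, where 6.41% of all tested genes were called, and the median over members was -0.18. At that time 36 of 48 means lay below 0 and 18 members were lower in each of the 4 lines, where 13.8% of all genes were. BUB1 had signals of 2012, 2341, 1244 and 4742 after 6 h of ATO and 3549, 3333, 2116 and 6096 in control 2, lower in 4 of 4 lines. Its change of -0.61 ± 0.17 (SE; adjusted p = 0.0315) lost the call without U266, KMS11 or 8226/S (adjusted p = 0.183, 0.161 and 0.0579). After 24 h of ATO limma called 0 members, with 3 at an unadjusted p under 0.05, where 5% of all genes were called, and 2 were lower in each of the 4 lines, where 11.4% of all genes were. The other scalings, offset and probe set rule also called 0, and leaving out 8226/S called 1. The medians at 24 h were -0.28, -0.23, 0.38 and 0.05 in the 4 lines. In KMS11, 45 of 48 members lay above the control at that time, led by KIF4A at 1.07. In MM.1s the lowest at 24 h were FOXM1 at -1.20 and MKI67 at -1.10.

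Between 24 and 48 h of ATO, a step that uses no control array, the median member changed by -0.65 and 48 of 48 means were below 0. limma called 0 members in this step and 0 of all 15437 genes, so the background is 0%. At an unadjusted p under 0.05 there were 43 of 48 members and 983 of all genes. Members lower in all 4 lines numbered 29, against 8.27% of all genes. In MM.1s 43 members were at least 2-fold lower at 48 h than at 24 h, where 3.94% of all genes were, and the line's median step was -1.54. The steps were -0.62 in U266, -0.31 in KMS11 and -0.07 in 8226/S. From 6 to 24 h of ATO the median step was 0.17, with 0 members called by limma (0.46% of all genes) and 2 at an unadjusted p under 0.05.

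Whether the late ATO response differed between lines was tested with the 24 and 48 h arrays of each line together. The 2 times of a line stand in for replicates there, and differences between them within a line can add to the spread. limma's F test called FOXM1 and MKI67 (adjusted p = 0.0463 each), where 0.194% of all tested genes were called, and 38 of 48 members were at an unadjusted p under 0.05, against 1492 of 15437 genes. FOXM1 changed by -0.49, -1.20, 0.03 and 0.11 at 24 h and by -1.21, -2.85, -0.80 and -0.12 at 48 h. MKI67 changed by -0.66, -1.10, -0.35 and 0.00 at 24 h and by -1.09, -2.04, -0.87 and -0.07 at 48 h. In both genes MM.1s was lowest at both times and 8226/S lay closest to its control at 48 h. Both calls were lost when any 1 line was left out, with the mean of probe sets and with no filter; 1 other member was called without 8226/S. In 47 of 48 members U266 and MM.1s both lay below KMS11 and 8226/S at 48 h, an order found in 17.1% of all genes. The MM.1s array at 48 h had an ACTB 3'/5' ratio of 1.13 and a GAPDH ratio of 0.875, inside the range of the other ATO and control 2 arrays. Among the ATO-treated arrays alone that GAPDH ratio was the lowest, with U266 at 48 h next at 0.876.

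Plasma cell markers were lower under ATO from 6 h on. Of the 8, 4 were called lower after 6 h, 6 after 24 h and 7 after 48 h of ATO, with medians over the list of -0.67, -0.98 and -0.98. Of all tested genes, 2.64%, 2.27% and 5.38% were called lower at these times. From 24 to 48 h of ATO, the step in which the median mitotic member changed by -0.65, the median marker changed by -0.01. At 48 h the markers had medians of -1.18, -0.995, -1.18 and -0.26 in the 4 lines. Their summed signal ranged over the lines from 26338.5 to 51620.7 after 48 h of ATO and from 44495.8 to 101756.8 in control 2. None of the tested T cell, myeloid, fibroblast, endothelial or epithelial markers was called by limma at 48 h of ATO, and 1 of the 9 was at an unadjusted p under 0.05. The part of this shift in the mitotic result was not tested.

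Under DAR 15 members rose between 6 and 24 h, while 2 were called against control at 6 h and 0 at 24 h. After 6 h of DAR the median member changed by -0.26 and 45 of 48 means lay below 0. limma called 2 members, KIF11 lower and ANLN higher, where 13.2% of all tested genes were called. KIF11 had signals of 1367, 3148, 3609 and 1326 after 6 h of DAR, against 2429.8, 4639, 3954 and 3108 in control 1. It was lower in all 4 lines and by more than 2-fold in 8226/S, with a log2 change of -0.68 ± 0.17 (SE; adjusted p = 0.00827). The call was lost without U266 (adjusted p = 0.0507) or 8226/S (0.0975). ANLN, anillin, the scaffold of the contractile ring, had 1616, 2096, 3627 and 2119 after 6 h of DAR and 1210.1, 1136, 1684 and 1205 in control 1. It was the highest member in each of the 4 lines, and its mean change was 0.79 ± 0.19 (SE; adjusted p = 0.00591). The call was lost without KMS11 (adjusted p = 0.0624). By line the medians at 6 h were -0.30, -0.40, 0.06 and -0.47, and CDK1, at -0.98, -0.39, -0.22 and -0.78, was below control in each line without passing the test (adjusted p = 0.126).

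After 24 h of DAR limma called 0 of the 48 members against control 1, where 0.622% of all tested genes were called, and 16 were at an unadjusted p under 0.05. With all 8 controls pooled it called 5, all higher. The median was 0.35, and 36 members were higher in 4 of 4 lines, against 12.6% of all genes. The medians were 0.56, 0.19, 0.50 and 0.24 in the 4 lines. CDC20 had signals of 4382, 3323, 5184 and 7151 after 24 h of DAR, against 1876, 2636, 3562 and 5289 in control 1, higher in each line and by most in U266. Its mean change was 0.63 ± 0.31 (SE; adjusted p = 0.359). PLK1 had 3293, 1641, 4400.4 and 2527 after 24 h of DAR and 1745, 1893, 3351 and 3785 in control 1, higher in U266 and KMS11 and lower in MM.1s and 8226/S. FOXM1 changed by 0.07 ± 0.26 and MAD2L1 by 0.11 ± 0.20, both without passing.

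The step between the 2 DAR times, which uses no control array, held the most called members under this compound. From 6 to 24 h of DAR limma called 15 members higher and 0 lower, where 7.67% of all tested genes were called and 4.06% were called higher. The median step was 0.63, and 42 members were higher in 4 of 4 lines, against 12.4% of all genes. BUB1 had signals of 5864, 6154, 4442 and 8447 at 24 h of DAR, against 2579, 3606, 2437 and 3919 at 6 h. It was higher at 24 h in 4 of 4 lines, by a step of 0.98 ± 0.17 (SE; adjusted p = 0.000791). KIF11 was 3212, 4943, 5721 and 3314 at 24 h of DAR and 1367, 3148, 3609 and 1326 at 6 h, a step of 0.96 ± 0.17 (SE; adjusted p = 0.000913). CCNB1 had 12497, 8239, 14034 and 18729.6 at 24 h of DAR and 5096, 4269.5, 8411 and 7439.6 at 6 h, higher in each line. It had the highest step among the called members, 1.07 ± 0.23 (SE; adjusted p = 0.00519), 2.11-fold.

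By role, the genes that rose between 6 and 24 h of DAR were CCNA2, CCNB1 and CCNB2 among the genes of entry, and AURKA and NEK2 among the kinases. AURKA had 5449, 3337, 7128 and 3826 at 24 h of DAR and 2301, 2079, 4839.6 and 1584 at 6 h, a step of 0.93 ± 0.19 (SE; adjusted p = 0.00372). BUB1 and BUB1B rose in the checkpoint group, CENPE and CENPF at the kinetochore, and KIF11 and KIF20A among the kinesins. ECT2, NUSAP1, HMMR and ASPM rose among the spindle and cytokinesis factors, ASPM, a spindle pole protein, by 0.98 ± 0.24 (SE; adjusted p = 0.0118). CENPE was 2635, 1169, 3042 and 1268 at 24 h of DAR and 1003, 766, 1829.9 and 432 at 6 h, higher in 4 lines. BUB1, KIF11, ECT2 and CCNA2 were called both in this step and at 48 h of ATO. The members without a call ran from -0.28 for ANLN, which had been high at 6 h, up to 0.92 for UBE2C (adjusted p = 0.062).

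The count in this step was 4 without U266, 3 without 8226/S, 5 with all 8 controls pooled and 0 without the line block. BUB1, KIF11 and CENPF were called with any 1 line left out. In all 4 lines the ACTB 3'/5' ratio was higher at 24 h than at 6 h of DAR, with 2.19, 1.99, 1.69 and 1.89 at 24 h against 1.52, 1.40, 1.28 and 1.32 at 6 h. The GAPDH ratio moved the same way. The part of RNA quality in the step was not tested. Control 1 had ACTB ratios of 1.90, 1.74, 1.71 and 1.37. The line by DAR test called 0 members by limma, 0 of 48 were at an unadjusted p under 0.05, and 0.013% of all genes were called. In that test the 6 and 24 h arrays of a line stand in for replicates. The median member changed by -0.26 at 6 h and by 0.35 at 24 h, so opposite changes can cancel or add spread. The 0 calls therefore do not show that the lines responded alike. DAR dose differed between lines, so dose and line cannot be told apart there.

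**Figure D3:**
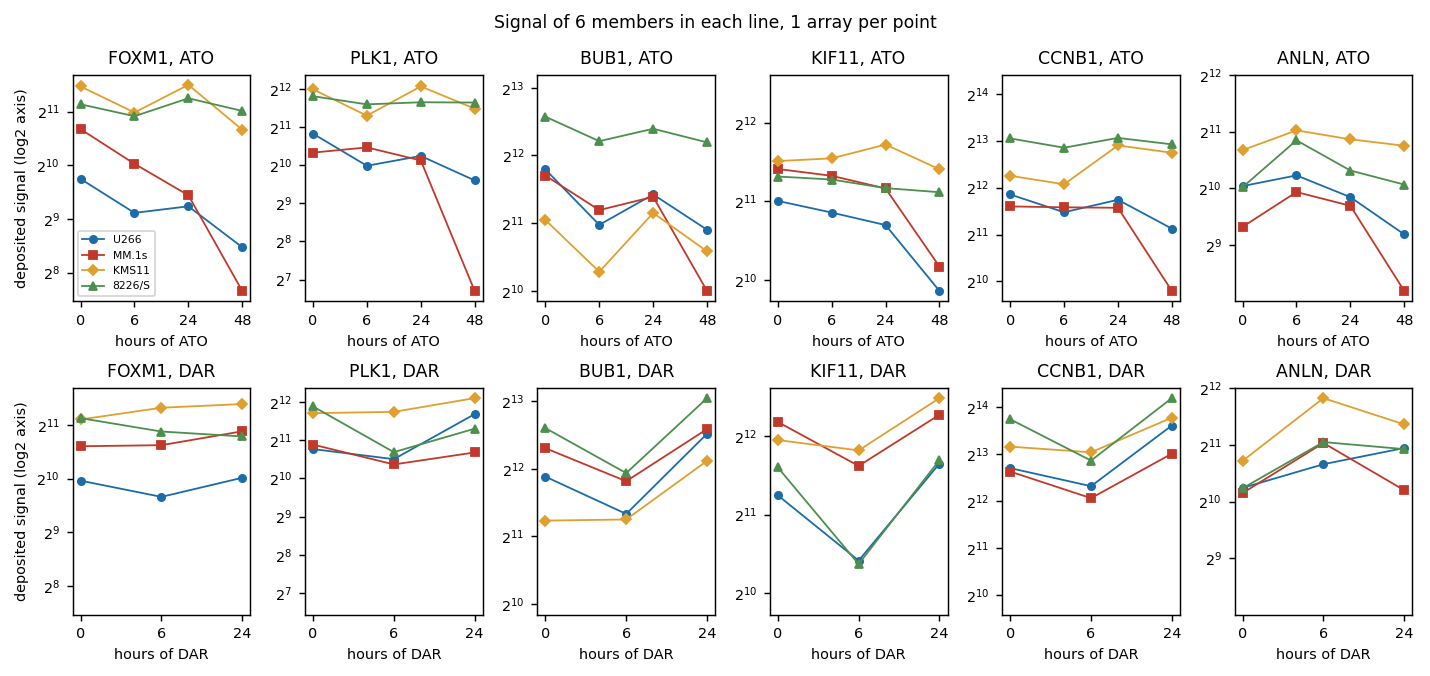
Deposited signal (y axis, log2 scale, shared within each gene) of FOXM1, PLK1, BUB1, KIF11, CCNB1 and ANLN against hours of ATO (upper row, 0 h is control 2) or DAR (lower row, 0 h is control 1), 1 line per cell line and 1 array per point. PLK1 in MM.1s stands at 104 at 48 h of ATO, BUB1 and KIF11 stand higher at 24 h than at 6 h of DAR in each line, and ANLN is higher at 6 h of DAR in each line.

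ATO and DAR had different doses in all lines but 8226/S, and different controls, so no test was made between them. At 24 h in U266 the median member changed by -0.28 under 2 µM ATO and by 0.56 under 4 µM DAR. In MM.1s the medians were -0.23 under 2 µM ATO and 0.19 under 3 µM DAR, and in KMS11 0.38 under 2 µM ATO and 0.50 under 3 µM DAR. In 8226/S, at 2 µM of each compound, the medians were -0.04 for ATO and -0.47 for DAR at 6 h, and 0.05 for ATO and 0.24 for DAR at 24 h. There KIF11 changed by -0.04 under ATO and -1.21 under DAR at 6 h, and PLK1 by -0.21 and -1.18. These rest on 1 array each.

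Other genes of the same programme were set beside the members. Of 57 further mitosis genes tested, such as condensin and centromere subunits, 28 fell and 0 rose after 48 h of ATO, where 5.38% of all genes were called lower, and 10 rose from 6 to 24 h of DAR, where 4.06% were called higher. At 24 h of DAR 0 of the 57 were called by limma and 9 were at an unadjusted p under 0.05; their median was 0.18, with 21 higher and 6 lower in each of the 4 lines, against 0.35, 36 and 0 for the 48 members. TRIP13, which remodels checkpoint complexes, changed by -1.43 ± 0.22 (SE; adjusted p = 0.000152) and the cohesin regulator CDCA5, sororin, by -1.47 ± 0.23 (SE; adjusted p = 0.000281) at 48 h of ATO. BORA, the activator of Aurora A, changed by -0.69 ± 0.15 (SE; adjusted p = 0.00394) at 6 h of DAR and by 1.20 ± 0.15 (SE; adjusted p = 3.81e-05) in the step to 24 h. Of 18 MuvB, E2F and MYB regulators, 7 fell at 48 h of ATO. MYBL2, the B-MYB that joins the MuvB core, changed by -1.82, -2.11, -1.47 and -0.62 in the 4 lines and by -1.51 ± 0.18 (SE; adjusted p = 1.55e-05) over them.

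The G1/S and DNA replication genes were set beside the members because they act in the preceding phase. After 48 h of ATO 25 of 31 fell and 0 rose, where 5.38% of all tested genes were called lower. The median was -0.75, with line medians of -1.27, -1.20, -0.51 and -0.17. MCM7, a subunit of the replicative helicase, changed by -1.42 ± 0.15 at 48 h of ATO (adjusted p = 1.70e-06) and had already fallen at 24 h, by -1.19 ± 0.15 (adjusted p = 2.22e-05). At 24 h of DAR the median G1/S gene changed by -0.37, with 30 of 31 means below 0, 0 called by limma and 15 at an unadjusted p under 0.05, while the median mitosis member changed by 0.35. The line medians at that time were -0.32, -0.17, -0.51 and -0.42 for G1/S and 0.56, 0.19, 0.50 and 0.24 for the mitosis members. The 2 lists thus lay on opposite sides of 0 in each line at 24 h of DAR. The difference between the lists was not tested.

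**Figure D4:**
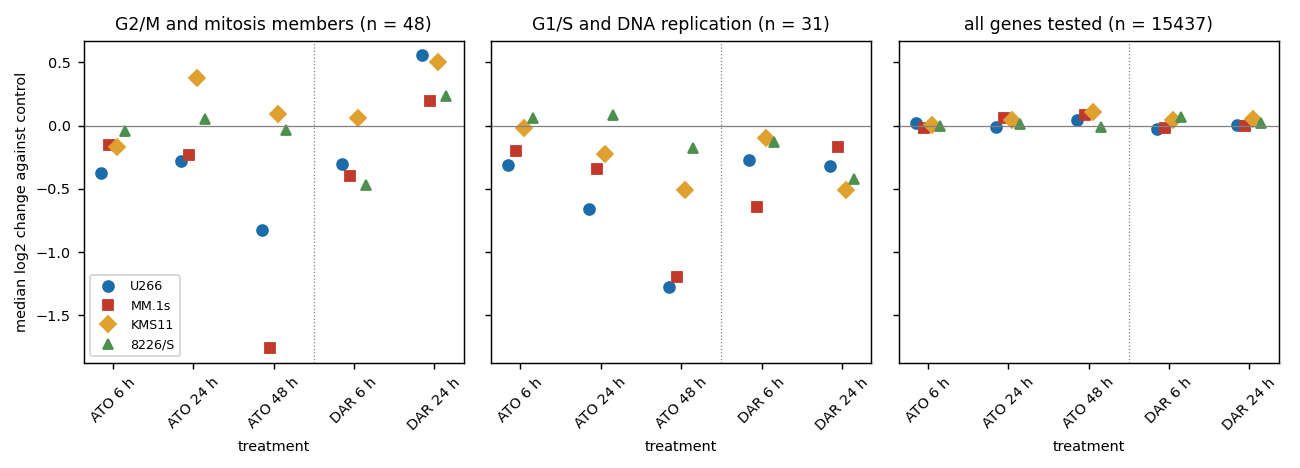
Median log2 change against the same line's control (y axis) for the 48 members, 31 G1/S and DNA replication genes and all 15437 tested genes, by treatment and time (x axis), 1 symbol per line. At 48 h of ATO both lists are lowest in U266 and MM.1s, and at 24 h of DAR the mitosis medians are above 0 and the G1/S medians below 0 in all 4 lines.

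Of 13 tested brakes on mitotic entry, 4 rose after 6 h of DAR, where 6.85% of all tested genes were called higher. CDKN1A, the CDK inhibitor p21, changed by 1.99, 1.89, 3.18 and 2.20 in the 4 lines and by 2.32 ± 0.38 (SE; adjusted p = 0.000217) over them, and GADD45A, a stress protein that restrains CDK1, by 2.22 ± 0.28 (SE; adjusted p = 1.07e-05). WEE1, the kinase that phosphorylates and inhibits CDK1, changed by 0.82 ± 0.17 (SE; adjusted p = 0.00181). From 6 to 24 h of DAR all 3 fell, WEE1 by -0.96 ± 0.17 (SE; adjusted p = 0.00074). At 48 h of ATO 2 brakes were called, both lower, where 11.7% of all tested genes were called and 5.38% were called lower. Among the 2 was the checkpoint kinase CHEK1 at -0.95 ± 0.18 (SE; adjusted p = 0.00106). CDKN1A changed by -1.63, 0.35, 2.39 and -0.26 in the 4 lines, higher in MM.1s and KMS11 and lower in U266 and 8226/S.

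Set against the promoter letters, the 29 members with a TTTGAA or TTCGAA held 14 of those called lower at 48 h of ATO, with a median of -0.65, and the 11 members without one held 3, with a median of -0.48. In the DAR step 9 of the 29 and 5 of the 11 were called higher, with medians of 0.66 and 0.76. TOP2A and BUB1, with promoters shown above, had 48 h ATO changes of -0.50 and -0.85, and ECT2 and MKI67 of -1.10 and -1.02. All 29 members with a core and all 11 without one were at least 2-fold lower in MM.1s.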

How the data were processed

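The intensity values are the authors' deposited signals, 1 per probe set and array, made with GCOS per the submitters' processing notes, from biotin-labelled cRNA per the labels' protocols. The sources used here name no version of it. Each array's 2% trimmed mean was about 500, so the signals had been scaled to a common target, and they were not rescaled here. Signal over background, not read depth, and the 1 array per line and treatment limit the precision.

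Of 54675 probe sets, 41091 carried 1 gene symbol in GEO's platform annotation (array controls left out), 1801 several and 11777 none; 41037 were matched to RefSeq by Entrez identifier. A probe set shared by CENPA and SLC35F6 was left out. Values were taken as log2(signal + 29), which understates changes of dim genes. A gene was tested if above the array's 50th percentile on at least 4 of 28 arrays; 42 members were above it on all 28, 5 on 27 and 1 on 26. limma 3.58.1 in R 4.3.3 fitted a baseline for each line within each control number and 5 treatment terms (15 residual degrees of freedom, eBayes with trend), with Benjamini-Hochberg adjustment over the 15437 genes and calls at 0.05. F tests asked whether lines differed. The comparisons at different times of a compound share control arrays.

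Arrays of 1 line come from the same cell line and deviated together (mean correlation of deviations 0.737, lowest 0.600, over 84 pairs), so lines were blocked. The highest correlation between any 2 arrays was 0.966.

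The members, roles, motifs and further lists were chosen with earlier results of these data known. Values in every line were fixed for the 8 members with the most calls and for CDK1, CCNB1, CDC20, PLK1, AURKA, BIRC5, TOP2A and FOXM1, 14 in all; those of UBE2C, MELK, INCENP, CENPA, CENPE, PTTG1 and ANLN were added after they were seen, and the others are given by counts, ranges or the smallest p of a role. Of further lists, called genes with small p were named. In simulated data of 15437 genes with 200 changed, 94%, 70.1% and 7.58% of changes of -2, -1 and -0.5 (log2) were called for 48 h of ATO, with 9 false calls of 124. For 24 h of DAR they were 92.5%, 58.2% and 13.6%, with 5 false calls of 115. Alternatives tried were pooled controls, quantile normalization, median centring, an offset of 100, no filter, the mean of probe sets, no line block, and leaving out each line.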

Additional observations from a re-analysis of the deposited data

Results flagged for a closer look

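CCNB1 at 24 h of ATO stood out for 1 line. Its log2 change was 0.64 in KMS11, while the other 3 lines lay between -0.11 and 0.01, so that the gap was 0.837 of the whole range, above Dixon's 95% critical value for 4 samples. It was the 1 such case among 75 groups of 4 values examined, and chance alone gives about 1 in 20.

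FOXM1 and MKI67 were singled out because their late ATO response differed between the lines by limma's F test (adjusted p = 0.0463 for FOXM1 and 0.0463 for MKI67). FOXM1 changed by -1.21, -2.85, -0.80 and -0.12 and MKI67 by -1.09, -2.04, -0.87 and -0.07 in U266, MM.1s, KMS11 and 8226/S at 48 h of ATO.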

How the results depend on the processing

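None of the 39 called changes of members turned direction under the alternatives run, nor did 7 of the 8 medians over members. The median at 24 h of ATO, -0.0024, was 0.05 without U266 and 0.07 without MM.1s. Leaving out each line in turn gave 7 to 27 members called at 48 h of ATO, 3 to 19 in the 6 to 24 h DAR step, 0 to 1 at 6 h and at 24 h of ATO, 1 to 2 at 6 h of DAR, 0 to 1 in the 24 to 48 h ATO step and 0 to 1 for line by late ATO. Without the line block (no replicate block), 0 members were called at 6 h of ATO, 48 h of ATO, 6 h of DAR and in the DAR step. Pooling all 8 controls called 3 at 6 h of ATO, 29 at 48 h of ATO (20 of them among the 21), 1 at 6 h of DAR, 5 at 24 h of DAR, 5 in the DAR step and 7 for line differences before treatment. Median centring called 4 at 6 h of DAR and put 4 members of KMS11 at least 2-fold lower at 48 h of ATO. An offset of 100 called 2 at 6 h of ATO and 4 for line by late ATO, and no filter called 0 for the latter test. The mean of a gene's probe sets called 0 at 6 h of ATO, 13 at 48 h of ATO, 4 at 6 h of DAR and 0 for line by late ATO. The cause was not tested. Of 18 called results of single named genes, 8 lost the call without U266, 6 without 8226/S, 3 without MM.1s, 3 without KMS11, 6 with the mean of probe sets, 4 with pooled controls and 18 without the block. In the simulated data 200 of 15437 genes were changed, each equally in all lines. There 7.58% of changes of -0.5 (log2) were called for 48 h of ATO. The calls there numbered 124, against 1812 in the arrays at 48 h of ATO, CKS2 at -0.50 among them. How often changes of this size were called in the arrays was not tested.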

Other observations

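Probe sets of a member were not all alike. Among members called against a control, other probe sets above the array median on enough arrays had the same sign in 20 of 21 cases at 48 h of ATO. For BUB1 at 6 h of ATO, 2 others had the same sign and 1 did not, at 0.07 against -0.61. Members without a call and the step from 6 to 24 h of DAR were not counted. For BUB1 the probe set used changed by -0.85 at 48 h of ATO and the others by -0.80, -0.31 and -0.03. For BIRC5 it changed by -1.14 and the others by -0.84, -0.38 and -0.09, and for MKI67 by -1.02 and the others by -1.30, -0.97 and -0.90. EPCAM and KRT18, genes of epithelial cells, lay above the array median on 14 and 17 of the 28 arrays.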
